A study of Mus musculus with 45 samples.

Results

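The 10 genes described here belong to the bone morphogenetic protein (BMP) and transforming growth factor beta (TGF-beta) pathways. They were taken from the RNA sequencing (RNA-seq) count table by their symbols, a rule that reads no measured value, and each symbol matched 1 of the 24918 gene entries. Which symbols to list was, however, chosen with earlier results of these data known. The members were the ligand Bmp2, the receptors Bmpr1a and Tgfbr2, the pseudoreceptor Bambi, the signal-carrying Smad3, the inhibitory Smad6 and Smad7, and the target genes Id1, Id2 and Id3. All 10 passed the filter on low counts and were among the 12961 genes tested. RNA came from the colonic epithelium of male C57BL/6 mice (C57BL/6J in the study's methods), detached from the whole colon with EDTA. The animals were 6 weeks old when the diets began. Control mice (LF) ate a diet with 10% fat for 20 weeks, and obese mice (HF) ate a diet with 60% fat for 20 weeks. Formerly obese mice (HFLF) ate the high-fat diet for 15 weeks and the low-fat diet for another 5 weeks. Each group held 5 mice with 1 library each, and the labels name diet as the only difference and no genetic change. Every mouse of the last group had first eaten the high-fat diet, so a state before weight gain was not measured in the same animals.

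BMP and TGF-beta ligands bind pairs of receptor kinases at the cell surface, which phosphorylate Smad proteins that then enter the nucleus and regulate target genes. Among those targets are the Id genes and the inhibitory Smads, which feed back on the pathway. In the colon, BMP signals are known to be strongest towards the surface of the crypts, where they restrain stem cells and favour differentiation, and TGF-beta signals restrain the growth of epithelial cells.

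The libraries held between 15230391 and 22762095 counts, with the largest total in formerly obese mouse 3. Totals were 15230391 to 16718408 in control, 15591904 to 16749096 in obese and 16114562 to 22762095 in formerly obese mice. All formerly obese libraries but that of mouse 2 were larger than every control and obese library. Depth thus differed with group, and its part in the results on formerly obese mice was not tested. The label was checked with markers, and 6 epithelial genes summed to between 12794 and 15253 counts-per-million (CPM) in each library. Immune cell markers summed to at most 44.6 CPM, fibroblast markers to at most 30.7 CPM and smooth muscle markers to at most 2.39 CPM. Of the fibroblast markers, Col1a1, Lum and Pdgfra averaged under 1 CPM, while Dcn, Col3a1 and Col1a2 averaged 4.41, 3.03 and 1.45 CPM. The sum of 6 colonocyte markers of the crypt top ranged over 3644 to 5267 CPM among control mice, over 3822 to 4813 CPM among obese mice and over 4873 to 6234 CPM among formerly obese mice. Of these, Slc26a3, Krt20 and Ceacam20 were called higher in formerly obese than in control mice, and Slc26a3, Guca2a and Slc20a1 higher than in obese mice. Not called were Guca2a (log2 0.25), Aqp8 (0.24) and Slc20a1 (-0.05) against control mice, and Aqp8 (0.38), Krt20 (0.35) and Ceacam20 (0.24) against obese mice. In obese against control mice Slc20a1 was called lower (log2 -0.32, adjusted p = 0.182) and the other 5 were not called. The part of crypt-top cells in the results on formerly obese mice was not tested.

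In edgeR, none of the 10 genes passed the cutoffs of the study in any of the 3 comparisons. The study applied these cutoffs to results of DESeq2, with which Bambi passed them here in 1 comparison. A call in edgeR's quasi-likelihood test needed a fold change over 1.2 in either direction, a p under 0.01 and an adjusted p (Benjamini-Hochberg) under 0.25. By this rule 0 of 10 were called between obese and control mice, against 1.58% of all genes tested. The count was 0 of 10 between formerly obese and control mice, against 3.72%, and 0 of 10 between formerly obese and obese mice, against 2.65%. DESeq2 called 0, 1 and 0 members in the same order, beside 269, 533 and 363 calls over all genes. The 1 was Bambi (log2 -0.43, adjusted p = 0.0957). At an unadjusted p under 0.05 in edgeR, the counts were 1, 1 and 2 of 10, beside 10.9%, 16.7% and 13.4% of all genes. Bmp2 was the gene in the first comparison, Bambi in the second, and Bambi and Bmpr1a in the third. For each of the 10 genes the ranges of the groups overlapped in all 3 comparisons, while 2.47%, 3.62% and 3.38% of all genes had ranges that did not overlap. Both comparisons with control mice share the same 5 control libraries, and those with obese mice share the same 5 obese libraries.

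The estimates were small and close to 0 in the median. Between obese and control mice, 3 members had a higher and 7 a lower estimate, with a median log2 fold change of -0.05. Between formerly obese and control mice, 6 were higher and 4 lower, with a median of 0.05, and between formerly obese and obese mice 7 were higher and 3 lower, with a median of 0.06. The median of all genes tested lay at 0.00 in each. A gene that misses the threshold may still differ, so the 95% intervals were compared with the fold cutoff of 1.2, which is 0.26 on the log2 scale. The interval lay wholly inside that cutoff for 5, 4 and 5 members in the 3 comparisons. For the others a change past the cutoff was not excluded by the interval at this number of mice.

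**Figure D1:**
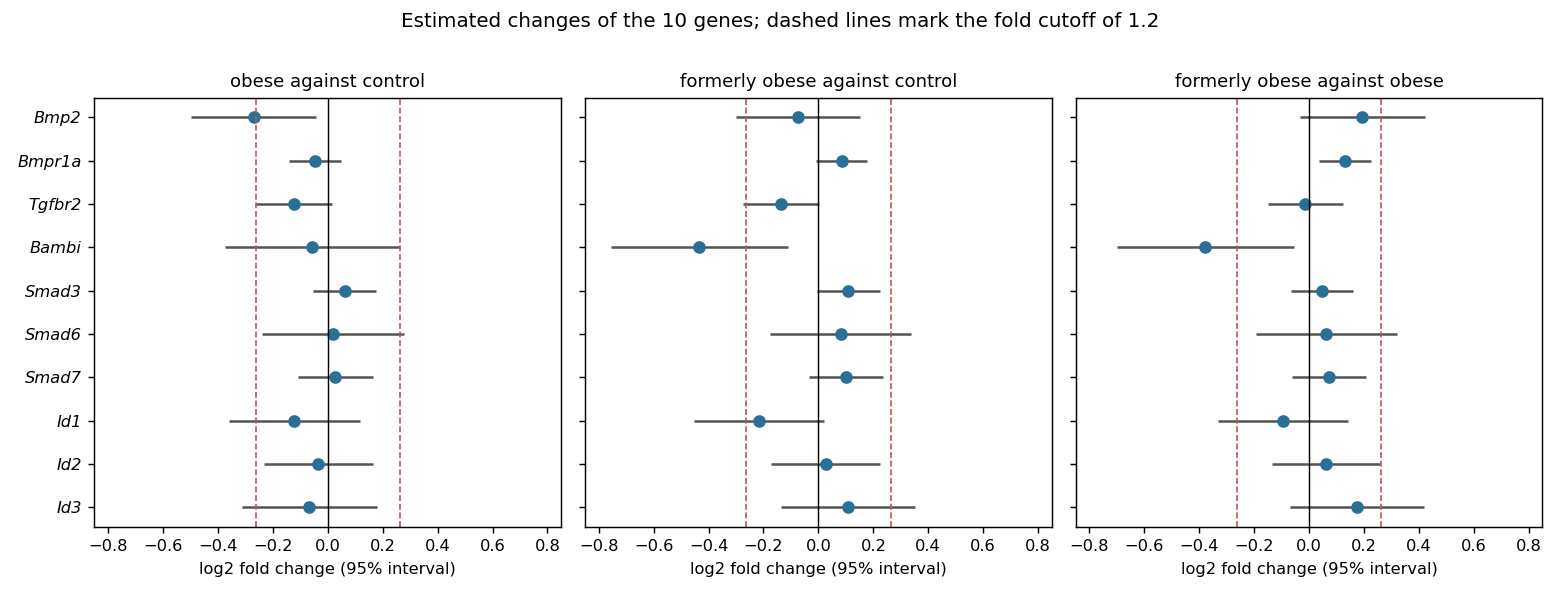
Log2 fold change of each of the 10 genes (x axis) with its 95% interval (line), in the 3 comparisons between groups of 5 mice, with dashed lines at the fold cutoff of 1.2. Bambi lies past the cutoff in both comparisons of formerly obese mice, at -0.43 and -0.38, with intervals that reach back inside the cutoff, and Bmp2 lies at the edge at -0.27 in obese mice.

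Bmp2, a secreted ligand that in the colon is made by surface colonocytes among others, had the lowest p of the 10 genes in obese mice. Its levels were 74.5, 78.3, 63.5, 67.7 and 56.2 CPM in the 5 control mice. In obese mice they were 45.9, 68.1, 49.9, 53.6 and 64.7 CPM. In formerly obese mice they were 63.0, 67.6, 56.4, 63.1 and 73.1 CPM. Obese mice 1, 3 and 4 lay under every control mouse, while obese mice 2 and 5 lay among them. Bmp2 had a log2 fold change of -0.27 (SE 0.108) in obese mice, with a 95% interval from -0.50 to -0.04 and an adjusted p of 0.370. Without obese mouse 2 the estimate was -0.34 with an adjusted p of 0.180, and Bmp2 then passed all 3 cutoffs. The formerly obese mice lay between, at -0.07 against control mice (interval -0.30 to 0.15) and 0.19 against obese mice (interval -0.03 to 0.42, adjusted p = 0.461). In bulk tissue, fewer cells that express a gene and less RNA in each cell cannot be told apart.

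The region of changed DNA methylation nearest to the start of any of the 10 genes lay beside Bmp2. Whole-genome bisulfite sequencing, which reads the methylation of cytosines in CG pairs, was used by the authors to list differentially methylated regions (DMRs) between obese and control mice, each with a position and a direction and no value per mouse. The Bmp2 gene lies at chr2:133552159-133562896 on the plus strand (mm10, GRCm38). A region of 254 bases with lower methylation in obese mice ended 729 bases upstream of it, between genes. Its sequence on the plus strand, at chr2:133551177-133551430, is printed because it is the region that lies next to the gene with the lowest p in obese mice, and the capitals mark CG pairs.
Bmp2 DMR: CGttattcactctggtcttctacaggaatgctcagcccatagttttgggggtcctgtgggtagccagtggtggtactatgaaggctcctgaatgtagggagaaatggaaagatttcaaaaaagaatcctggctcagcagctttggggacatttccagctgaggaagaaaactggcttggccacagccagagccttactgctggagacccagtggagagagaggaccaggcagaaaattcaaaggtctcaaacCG
The region held 2 CG pairs, 1 at each edge, so the stretch between them had none. Lower methylation and the lower Bmp2 estimate were both seen in obese mice, but Bmp2 did not pass the test and no methylation value per mouse was used here.

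Bmpr1a, a type I receptor for BMP ligands, was the most even of the 10 genes between mice. Control mice had 148, 136, 144, 149 and 132 CPM. Obese mice had 132, 137, 141, 142 and 135 CPM. Formerly obese mice had 148, 157, 148, 141 and 158 CPM. All formerly obese mice but number 4 lay above every obese mouse. Between formerly obese and obese mice the log2 fold change was 0.13 (SE 0.0445), with an interval from 0.04 to 0.22 and an adjusted p of 0.193. Its unadjusted p in edgeR of 0.00889 was the smallest of any member in any comparison, but the whole interval lay under the fold cutoff, so the gene was not called. Against control mice the estimate was 0.08 (interval -0.01 to 0.18, adjusted p = 0.355) in formerly obese mice and -0.05 (interval -0.14 to 0.05, adjusted p = 0.754) in obese mice. The within-group SD of Bmpr1a was 0.065 on the log2 CPM scale, and 8.1% of all genes tested had a smaller one.

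Bmpr1a lies at chr14:34411068-34502546 on the minus strand. A region of 16 bases with lower methylation in obese mice lay in an intron, 2.38 kb inside the gene from its start. It is printed on the plus strand, from chr14:34500156-34500171, because it is the closest region to a start site within a member's own body, with CG pairs in capitals.
Bmpr1a DMR: CGccatggcactgaCG
Its direction was measured in obese against control mice, the comparison in which Bmpr1a differed least, by -0.05.

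Tgfbr2, the type II receptor that binds TGF-beta and activates the type I receptor, was lower on average in both groups that had eaten the high-fat diet. Control mice had 136, 135, 110.4, 112 and 123 CPM, obese mice 109 to 117 CPM and formerly obese mice 97.1 to 123 CPM. Control mice 1 and 2 lay above all other libraries, and the other 3 control mice lay within the range of the formerly obese mice. In obese mice it was lower by a log2 fold change of -0.12 (SE 0.065, interval -0.26 to 0.02, adjusted p = 0.515). The value was -0.14 (SE 0.065, interval -0.27 to 0.00, adjusted p = 0.307) in formerly obese mice. Between formerly obese and obese mice the estimate was -0.01 (interval -0.15 to 0.12), and its sign turned when obese mouse 1 or formerly obese mouse 4 was left out.

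Bambi, a receptor-like protein that lacks the kinase part and so damps both BMP and TGF-beta signals, showed the largest estimate of the 10 genes. Control mice had 10.3, 6.35, 8.31, 7.51 and 8.04 CPM. Obese mice had 9.12, 7.70, 7.67, 6.49 and 7.99 CPM. Formerly obese mice had 6.76, 4.07, 6.81, 5.15 and 7.07 CPM. The 5 formerly obese mice lay under 4 of the 5 control mice, and the overlap came from control mouse 2 alone. Bambi was also the least abundant member, with 65 to 165 counts in a library.

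The log2 fold change of Bambi between formerly obese and control mice was -0.43 (SE 0.153), a fold of 0.740 with an interval from 0.592 to 0.925. Its unadjusted p in edgeR was 0.0111, just over the cutoff of 0.01, and the adjusted p was 0.150. The call therefore depended on small choices: it was made with upper-quartile scaling, DESeq2, no count filter or a removed GC trend, with adjusted p between 0.0957 and 0.182. It was also made without control mouse 2 (-0.51, adjusted p = 0.137), without formerly obese mouse 3 (-0.49, adjusted p = 0.164) and without formerly obese mouse 5 (-0.50, adjusted p = 0.129). Against obese mice the estimate was -0.38 (SE 0.153, interval -0.70 to -0.06, adjusted p = 0.277). Obese and control mice gave -0.06 (interval -0.38 to 0.26, adjusted p = 0.937), a value whose sign turned without control mouse 1 or obese mouse 4.

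**Figure D2:**
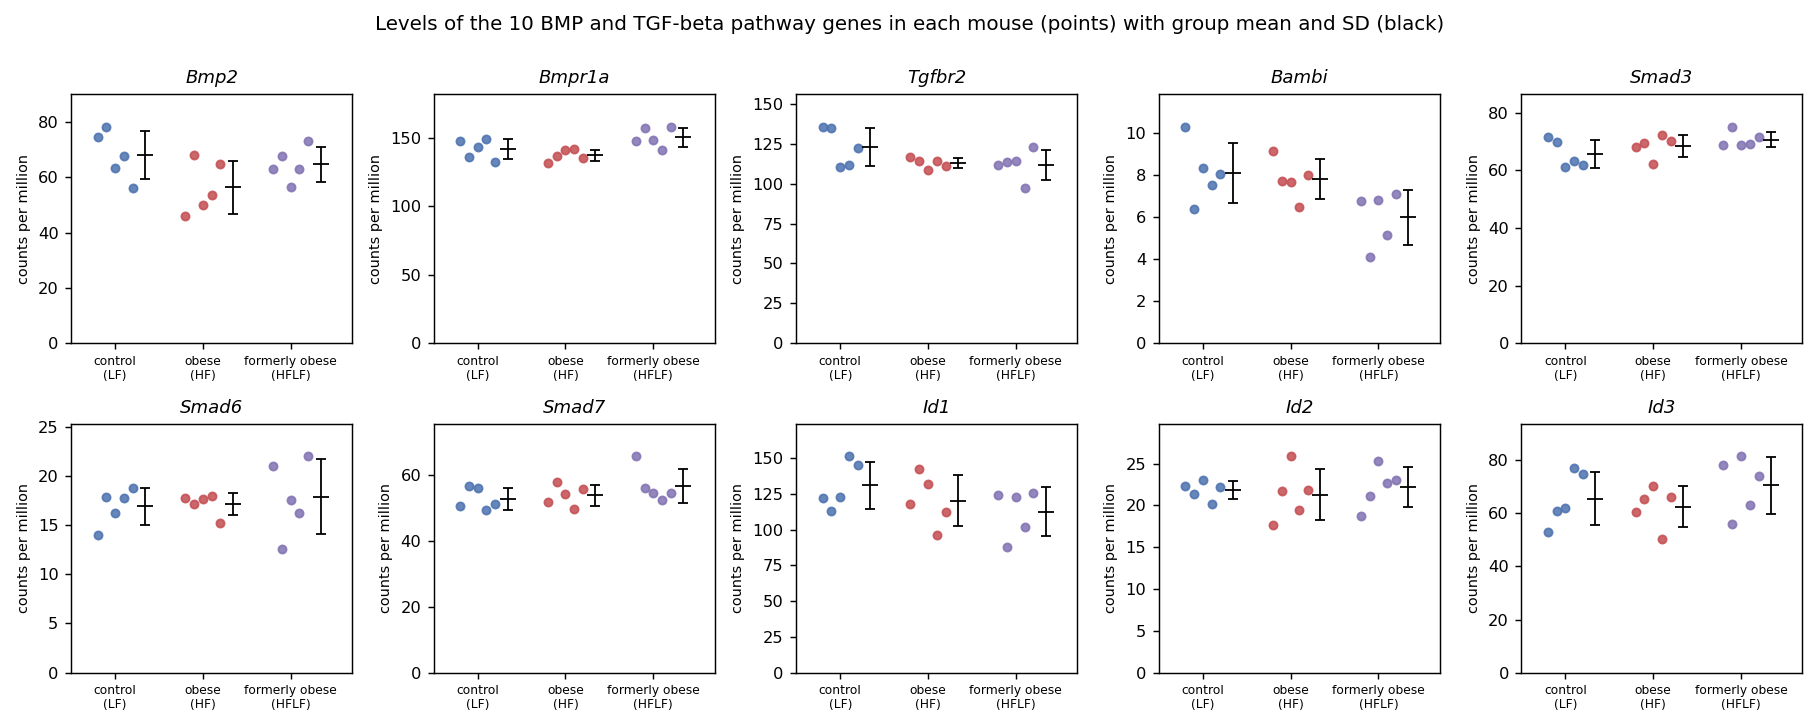
CPM (y axis, from 0) of the 10 genes in each of the 15 mice (points), by group, with the mean and SD of the 5 mice in black. Every gene has overlapping groups, and the lowest values of Bambi, 4.07 and 5.15 CPM, are both in formerly obese mice.

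Smad3, which carries TGF-beta signals into the nucleus, differed little between groups. Its levels were 61.1 to 71.6 CPM in control, 62.2 to 72.2 CPM in obese and 68.7 to 75.1 CPM in formerly obese mice. The formerly obese mice were the most even, and all 5 lay above 3 of the 5 control mice. The estimates were 0.06 in obese (interval -0.05 to 0.18, adjusted p = 0.730) and 0.11 in formerly obese mice (interval -0.0046 to 0.22, adjusted p = 0.320) against control mice. Both intervals, and that between formerly obese and obese mice (-0.07 to 0.16), lay wholly inside the fold cutoff.

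The inhibitory Smads, which compete with the signal-carrying Smads and lead receptors to degradation, were not called either. The 3 intervals of Smad6 passed the fold cutoff at their upper bounds, 0.28, 0.34 and 0.32, so a change of that size was not excluded. Smad6, the inhibitor known to act mainly on BMP signals, had 14.01 to 18.7 CPM in control, 15.3 to 17.9 CPM in obese and 12.5 to 22.0 CPM in formerly obese mice. Both the lowest and the highest of the 15 values were in formerly obese mice, and the estimates were 0.02, 0.08 and 0.06 with adjusted p from 0.782 to 0.977. The sign of the Smad6 estimate turned in each comparison under at least 1 alternative. Smad7, which inhibits both branches, had 49.5 to 56.7 CPM in control, 49.7 to 57.9 CPM in obese and 52.5 to 65.7 CPM in formerly obese mice. Its 3 intervals lay wholly inside the fold cutoff, the widest upward bound being 0.24 in formerly obese against control mice (adjusted p = 0.448).

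A region of 51 bases in an intron of Smad6 (chr9:63953076-64022059, minus strand) had lower methylation in obese mice. It is printed on the plus strand, from chr9:63985005-63985055, because it lies inside the gene, with CG pairs in capitals. A second region of 12 bases, also lower, lay 21.0 kb upstream at chr9:64043035-64043046 and is printed for comparison.
Smad6 intron DMR: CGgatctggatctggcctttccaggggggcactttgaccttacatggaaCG
Smad6 upstream DMR: CGagaacattCG
Both regions had the same direction, whereas the Smad6 estimate in obese mice was 0.02 with an interval from -0.24 to 0.28.

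Id1, Id2 and Id3 encode proteins that bind basic helix-loop-helix factors and keep them from DNA, and Id1 and Id3 are classical targets of BMP signals. Id1 had 122, 113, 123, 151 and 145 CPM in control mice. It had 118, 143, 132, 96.5 and 113 CPM in obese mice and 125, 88.0, 123, 102 and 126 CPM in formerly obese mice. Control mice 4 and 5 were the highest of the 15, and formerly obese mouse 2 was the lowest. For Id1 the log2 fold change was -0.12 in obese (interval -0.36 to 0.12, adjusted p = 0.747) and -0.22 in formerly obese mice (interval -0.45 to 0.02, adjusted p = 0.350).

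Id3 did not share the lower mean in formerly obese mice. It had 53.1, 61.0, 62.1, 76.9 and 74.8 CPM in control mice. It had 60.4, 65.6, 70.4, 50.2 and 66.3 CPM in obese mice and 78.3, 55.8, 81.5, 63.2 and 73.9 CPM in formerly obese mice. The groups overlapped broadly, with estimates of -0.07 in obese and 0.11 in formerly obese mice against control mice (adjusted p = 0.889 and 0.687). Between formerly obese and obese mice the estimate was 0.17 (interval -0.07 to 0.42, adjusted p = 0.557).

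Id2, which in other tissues also answers to signals outside the BMP branch, had 20.2 to 23.1 CPM in control, 17.7 to 25.9 CPM in obese and 18.8 to 25.3 CPM in formerly obese mice. The control mice were the most even, with an SD of 1.10 CPM against 3.10 and 2.44 CPM in the other groups. Its estimates were -0.04, 0.03 and 0.06, and all 3 intervals lay wholly inside the fold cutoff. A region of 12 bases with higher methylation in obese mice lay 1.32 kb upstream of Id2 (chr12:25093799-25096092, minus strand). It is printed on the plus strand, from chr12:25097414-25097425, because it is the nearest region to a start site with higher methylation, with CG pairs in capitals.
Id2 DMR: CGgtaaaatcCG
The other region of Id2, with lower methylation, lay 71.4 kb upstream in an intron of Gm36287.

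The order of the 10 genes was compared per length, as RPKM, the CPM divided by the length of a gene's exons in kilobases from RefSeq. Over the 15 libraries Id1 averaged 104.6 RPKM (SD 15.18) and Id3 69.5 RPKM (SD 10.01), so these targets were the most abundant members. The receptors followed, with 24.2 RPKM for Tgfbr2 and 22.0 RPKM for Bmpr1a, and then Bmp2 and Id2 at 17.7 and 17.1 RPKM. Smad7 and Smad3 were at 12.3 and 12.2 RPKM, Smad6 at 5.77 RPKM and Bambi at 1.28 RPKM. Most steps in this order held in nearly every mouse, as Id1 was above Id3, Id3 above Tgfbr2, Smad3 above Smad6 and Smad6 above Bambi in 15 of 15 libraries. Bmp2 was above Id2 in 8 of 15 and Smad7 above Smad3 in 6 of 15, so these neighbours did not differ beyond their spread.

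Variation between mice of the same diet also differed among the members. The within-group SD on the log2 CPM scale was 0.065 for Bmpr1a, 0.083 for Smad3, 0.103 for Smad7 and 0.112 for Tgfbr2, under the median of 0.129 of all genes tested. It was 0.157 for Id2, 0.195 for Bmp2, 0.209 for Id1, 0.214 for Id3, 0.216 for Smad6 and 0.261 for Bambi. The receptors, Smad3 and Smad7 were thus the more even members, and the ligand, the Id genes, Smad6 and Bambi the less even ones. Bambi also had the lowest counts.

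Id1 and Id3 went up and down together among mice of the same diet. After each group's mean was subtracted, Pearson's r over the 15 libraries was 0.874 (two-sided permutation p = 0.0004, adjusted p = 0.018 over the 45 pairs of members). Spearman's rho was 0.775 (permutation p = 0.00333, adjusted p = 0.15), and r was 0.776 without obese mouse 4 and formerly obese mouse 2, the libraries farthest from the median of Id1. This was the only pair with an adjusted p under 0.05 by Pearson's r, and by Spearman's rho there were 0. The next pairs were Smad3 with Id3 (r = -0.692, rho = -0.682), Tgfbr2 with Smad3 (r = 0.639, rho = 0.664), Bmp2 with Smad3 (r = 0.624, rho = 0.621) and Smad6 with Id1 (r = 0.604, rho = 0.504). Their permutation p were 0.0109, 0.0284, 0.0276 and 0.0296 for r, with an adjusted p of 0.213 each, and for rho 0.0134, 0.0261, 0.0245 and 0.0851 with adjusted p from 0.294 to 0.638. Without the 2 farthest libraries these r were -0.596, 0.628, 0.724 and 0.397, so the last pair rested in part on control mouse 1 and formerly obese mouse 2.

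**Figure D3:**
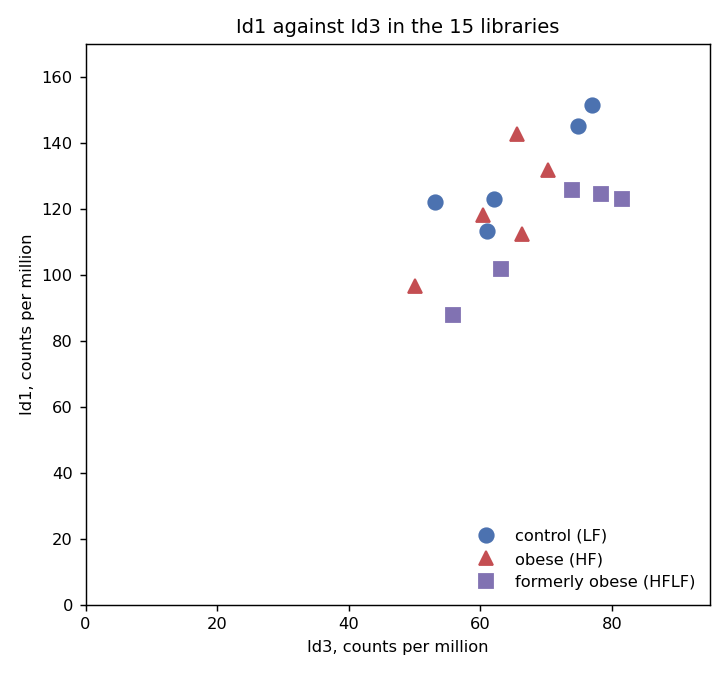
CPM of Id1 (y axis) against Id3 (x axis) in the 15 libraries, both axes from 0, with 1 symbol per group. Both genes vary together within each group, with Id1 at 88.0 to 126 CPM and Id3 at 55.8 to 81.5 CPM in formerly obese mice.

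The tested genes whose levels across the 15 libraries were most like those of Bambi and Bmpr1a, the members with the lowest p, were listed as a description. For Bambi these were Mfsd10 (Pearson's r = 0.906, rho = 0.886), Rbm38 (0.885 and 0.832), Slc19a1 (0.859 and 0.782), Zfp771 (0.852 and 0.668) and Brd3 (0.832 and 0.711). For Bmpr1a they were Tspan6 (0.864 and 0.846), Vps35 (0.863 and 0.911), Tmem177 (0.859 and 0.829), Tm9sf2 (0.853 and 0.843) and Ppp1cb (0.847 and 0.882). The libraries include differences between diets, and the genes were the best of all 12961 tested, so no p is given.

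Other genes of the 2 pathways were read from a list of 85, chosen with earlier results of these data known, of which 45 were tested. Of these, 5 (11.1%) were called between obese and control mice, beside 1.58% of all genes tested. The counts were 2 (4.44%, beside 3.72%) between formerly obese and control mice and 4 (8.89%, beside 2.65%) between formerly obese and obese mice. The medians of their log2 fold changes were 0.04, 0.00 and -0.02. At an adjusted p under 0.05 the counts were 0, 2 and 1 of 45, beside 0.123%, 2.18% and 0.193% of all genes tested. Without control mouse 2 or obese mouse 3, the 5 calls in obese against control mice fell to 0. Over all genes, calls in that comparison then fell from 205 to 44 and 40. The shares of this list are thus a description. The 5 tested signal-carrying Smads and the 2 tested TGF-beta and activin ligands gave 0 calls in edgeR in any comparison, with 0 of them at an unadjusted p under 0.05 and 0 calls in DESeq2.

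Among the ligands, 5 of 19 were tested. Bmp3, a member of the BMP family that opposes BMP signals, rose in formerly obese mice. Control mice had 66.6, 57.1, 66.5, 50.6 and 63.4 CPM, obese mice 58.6 to 75.9 CPM, and formerly obese mice 83.1, 90.0, 67.8, 95.5 and 87.0 CPM. Every formerly obese mouse lay above every control mouse. The log2 fold change was 0.48 (SE 0.093, adjusted p = 0.0233) against control mice, and the call held without each library in turn. Against obese mice it was 0.28 (adjusted p = 0.177), a call that was lost when obese mouse 1, 4 or 5 or formerly obese mouse 1, 2, 4 or 5 was left out, and with the GC trend removed. The crypt-top marker sums given above were 3644 to 5267 CPM in control and 4873 to 6234 CPM in formerly obese mice, which overlap. Their part in the Bmp3 values was not tested.

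Gdf15, a stress-induced ligand distant from the BMPs, was called lower in formerly obese than in control mice. It had 2.71 to 3.80 CPM in control, 1.77 to 2.93 CPM in obese and 1.42 to 2.51 CPM in formerly obese mice, and the first and last of these ranges did not overlap. Against control mice the log2 fold change was -0.71 (SE 0.194, adjusted p = 0.0664), on 27 to 61 counts per library. Obese mice gave -0.52 against control mice (SE 0.193, adjusted p = 0.327), and formerly obese mice gave -0.18 against obese mice (adjusted p = 0.752). The lower level in obese mice was called without control mouse 4 or without obese mouse 2. Bmp8b was called higher in obese mice, at 1.37 to 3.60 CPM against 0.450 to 1.55 CPM in control mice (log2 1.09, adjusted p = 0.199). That call rested on 7 to 61 counts, and the Bmp8b gene overlaps Oxct2b on the same strand, so the call is uncertain. It was also lost without control mouse 1, 2 or 5 or obese mouse 3 or 5.

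Among the intracellular inhibitors, of which 8 of 8 were tested, Pmepa1 and Skil were called higher in obese than in control mice and lower in formerly obese than in obese mice, 2 comparisons that share the obese libraries. Pmepa1, a target of TGF-beta that in turn holds back Smad signals, had 14.3, 14.7, 10.8, 12.2 and 14.4 CPM in control mice. It had 19.5, 15.0, 16.3, 17.0 and 16.9 CPM in obese mice and 10.8, 12.2, 12.5, 12.004 and 10.3 CPM in formerly obese mice. The obese mice lay above all 10 other mice. Pmepa1 was higher in obese than in control mice (log2 0.35, SE 0.095, adjusted p = 0.166) and lower in formerly obese than in obese mice (log2 -0.55, SE 0.095, adjusted p = 0.0297). The second call held without each library in turn, and the first was lost without control mouse 2 or without obese mouse 1, 3, 4 or 5.

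Skil, which encodes SnoN, a repressor bound to Smads, had 76.1 to 93.1 CPM in control, 90.4 to 117 CPM in obese and 73.2 to 91.3 CPM in formerly obese mice. The log2 fold change was 0.27 (adjusted p = 0.163) in obese mice against control mice and -0.27 (adjusted p = 0.1004) in formerly obese against obese mice. The first was lost without control mouse 1, 2, 3 or 5 or obese mouse 3, 4 or 5, and the second without obese mouse 4 or formerly obese mouse 4 or 5. Without a count filter both calls were lost, and with the GC trend removed the first was. Against control mice the formerly obese mice gave 0.00 (interval -0.15 to 0.15).

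Among the receptors and co-receptors, 9 of 12 were tested, and Acvrl1, a type I receptor known from endothelium, was called. It had 5.24 to 7.20 CPM in control, 3.52 to 5.01 CPM in obese and 4.06 to 6.90 CPM in formerly obese mice, and was lower in obese than in control mice (log2 -0.59, SE 0.153, adjusted p = 0.142). Control and obese mice did not overlap, though the call was lost without control mouse 2 or without obese mouse 1, 3, 4 or 5. The summed endothelial markers were 9.17 to 15.7 CPM in control and 8.30 to 11.5 CPM in obese mice, with Cdh5, Kdr and Tie1 under 1 CPM on average. Pecam1 averaged 5.28 CPM in control and 4.13 CPM in obese mice (log2 -0.35, adjusted p = 0.594). Vwf averaged 6.58 and 5.79 CPM (log2 -0.18, adjusted p = 0.736). The part of endothelial cells in the Acvrl1 result was not tested.

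Among the extracellular antagonists, 7 of 15 were tested, and Nbl1 and Bmper were called. Nbl1, which binds BMP ligands, had 26.1 to 36.0 CPM in control, 19.1 to 26.7 CPM in obese and 21.3 to 32.03 CPM in formerly obese mice. It was lower in obese than in control mice (log2 -0.47, SE 0.121, adjusted p = 0.142), a call lost without control mouse 1 or 2 or obese mouse 1, 3 or 4. Bmper, another binder of BMP ligands, was higher in formerly obese than in obese mice, at 1.34 to 2.47 against 0.601 to 1.12 CPM (log2 1.09, SE 0.322, adjusted p = 0.134), on 7 to 45 counts per library. This call was lost without obese mouse 1, 2 or 5 or formerly obese mouse 4 or 5. Fibroblast markers summed to 6.78 to 17.4 CPM in obese and 6.02 to 30.7 CPM in formerly obese mice, and their part in the Bmper values was not tested.

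Furin, a protease that cuts ligand precursors and 1 of the 4 tested genes of ligand processing and storage, had a low p with a change under the fold cutoff. It had 96.5 to 109 CPM in control, 101 to 108 CPM in obese and 82.9 to 97.2 CPM in formerly obese mice. The log2 fold change in formerly obese mice was -0.18 (adjusted p = 0.0491) against control mice and -0.22 (adjusted p = 0.0541) against obese mice. With the trend over GC content removed the values were -0.09 (adjusted p = 0.416) and -0.08 (adjusted p = 0.570).

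**Figure D4:**
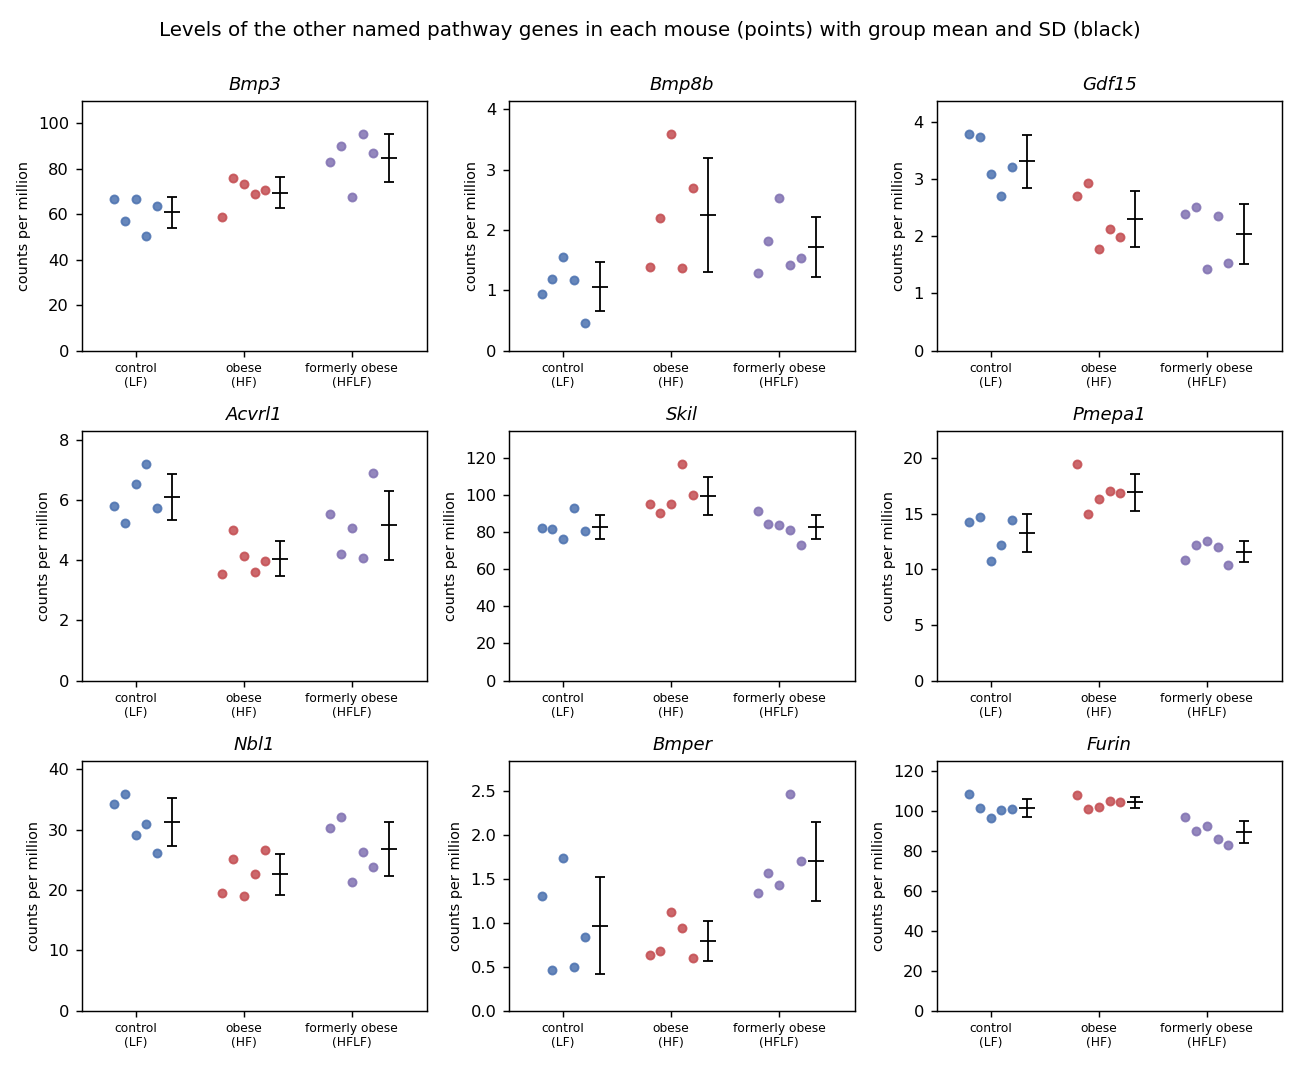
CPM (y axis, from 0) of 9 other pathway genes in each of the 15 mice (points), by group, with the mean and SD of the 5 mice in black. Bmp3 is above every control mouse in the formerly obese group, and Pmepa1 is above all other mice in the obese group.

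The list of regions with changed methylation between obese and control mice held 8199 entries, of which 4123 had higher and 4076 lower methylation in obese mice, with a median width of 28 bases. Within 100 kb on either side, 7 of the 10 genes (70.0%) had at least 1 region, beside 62.4% of all genes tested. Within 10 kb the count was 5 of 10 (50%, beside 20.6%), namely Bmp2, Bmpr1a, Tgfbr2, Smad6 and Id2. Within the gene itself it was 3 of 10 (30%, beside 12.3%), namely Bmpr1a, Tgfbr2 and Smad6. These 3 are long genes, spanning 91.5, 87.7 and 69.0 kb against a median of 21.3 kb of all genes tested, and gene length was not adjusted for in these counts. Smad3, the longest at 111 kb, had none, nor did Id3 or Bambi.

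Lower methylation in obese mice was the more frequent direction near these genes, while it was that of 4076 of the 8199 regions in the whole list. Several genes had more than 1 region, and the difference in direction was not tested. Bmp2, Bmpr1a, Smad6, Smad7 and Id1 had regions of lower methylation alone, while Tgfbr2 had 2 of higher and 1 of lower and Id2 had 1 of each. The regions of Tgfbr2 lay in its last exon outside the coding part (66 bases, higher), 33.2 kb upstream (16 bases, lower) and 84.3 kb upstream (23 bases, higher). Those of Smad7 lay 12.1 kb upstream and 20.0 kb beyond its end, and those of Id1 lay 71.2 and 28.4 kb upstream, the nearer one in an exon of H13 outside the coding part. Every region had 2 CG pairs, apart from the nearer one of Id1 with 3. None of the 10 genes was called between obese and control mice, with or without a region nearby. The depth behind each region was unknown from the list.

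**Figure D5:**
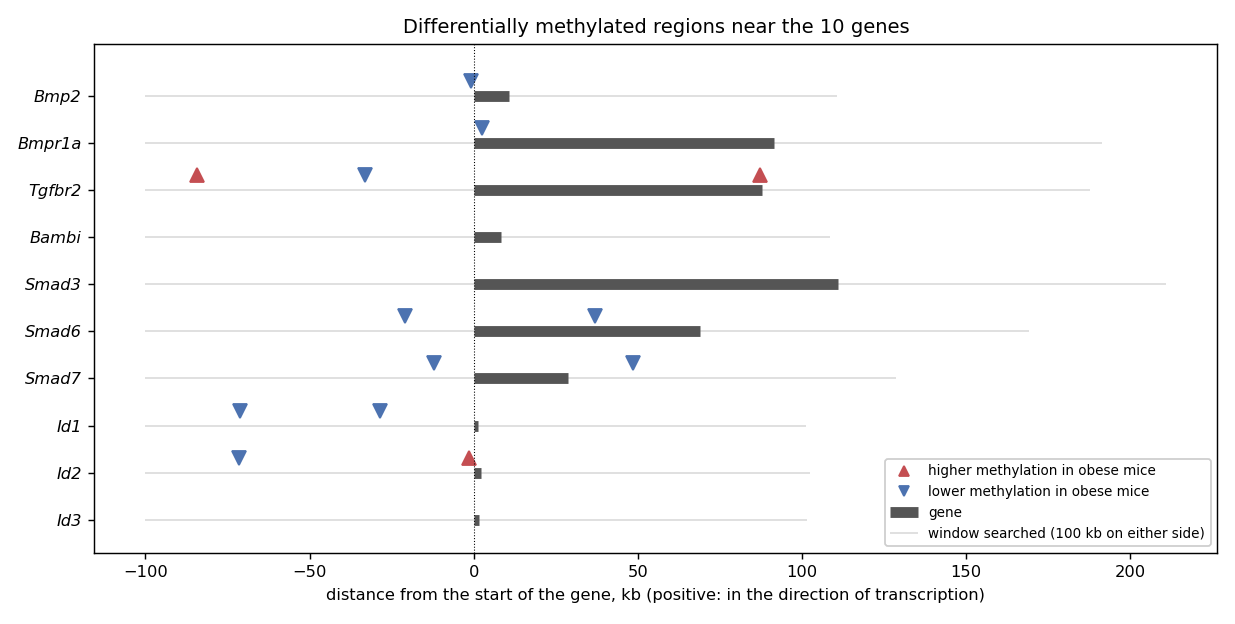
Position of differentially methylated regions (triangles, up for higher and down for lower methylation in obese than in control mice) as the distance in kb from the start of each of the 10 genes (x axis), with the gene as a dark bar and the 100 kb searched on either side as a pale line. The regions of Bmp2, Bmpr1a and Id2 lie closest to a gene start, at 0.729, 2.38 and 1.32 kb.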

How the data were processed

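RNA-seq was analysed in 15 libraries, 5 mice per diet. Per the labels and methods, the authors made stranded mRNA libraries from EDTA-detached epithelium and mapped paired reads to mm10 with TopHat2 2.0.4. The authors deposited raw counts per gene from HTSeq. Strand mode and annotation release are not given in the sources used here, so counts of overlapping genes are uncertain. Whole-genome bisulfite reads were mapped with Bismark, and the deposited DMR list holds positions and a direction only. The deposited amplicon methylation table and the authors' tables of their own fold changes and p-values were not used.

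Testing was done with edgeR 4.0.16 in R 4.3.3 (filterByExpr, TMM scaling, quasi-likelihood test with group as the only term, all 15 libraries), with Benjamini-Hochberg adjustment over 12961 genes. The cutoffs were those of the study, which used them with DESeq2. CPM used TMM-scaled totals, with a prior count of 2 on the log2 scale. Correlations used 100000 permutations within groups. All regions started and ended on a CG of GRCm38, and the sequences and exon lengths came from RefSeq's GRCm38.p6.

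Members were matched by symbol without reading values, but which symbols to list, and the other lists, were chosen with earlier results of these data known. Named genes were all members, each other pathway gene called in any comparison or among the 3 with the lowest p, and the 5 genes most like Bambi and Bmpr1a. The labels do not say whether mice shared cages or litters, so p-values measure the spread between these animals. Libraries of 15230391 to 22762095 counts set the precision, and alternatives changed scaling, filter, tool, block, GC trend, threshold and libraries.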

Additional observations from a re-analysis of the deposited data

Results flagged for a closer look

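Of 57 groups of 5 mice examined with Dixon's criterion (19 genes in 3 groups), 1 held an outlying sample, and chance flags about 1 in 20 groups. It was Smad7 in formerly obese mouse 1, at 65.7 CPM, where the nearest other mouse of the group had 55.9 CPM. This gap took up 0.743 of the range of the group, over the critical value of 0.71 for 5 samples.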

How the results depend on the processing

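No member passed the cutoffs in the reported fit. Between formerly obese and control mice, 1 member (Bambi) was called with upper-quartile scaling, DESeq2, no count filter and the GC trend removed. Over all genes these settings gave 494, 533, 570 and 459 calls, beside 482 in the reported fit. Leaving out single libraries gave 0 to 1 members in obese against control mice (Bmp2 without obese mouse 2), 0 to 1 in formerly obese against control mice and 0 to 0 in formerly obese against obese mice. For the other pathway genes these ranges were 0 to 7, 2 to 3 and 1 to 4, beside 5, 2 and 4. Over all genes they were 40 to 331, 362 to 660 and 167 to 400 calls, beside 205, 482 and 343. The 5 calls in obese mice dropped to 0 without control mouse 2 or obese mouse 3 (44 and 40 over all genes, beside 205). They dropped to 1 without obese mouse 4 or 5 (85 and 55), and to 2 without control mouse 1 or obese mouse 1 (130 and 135). Without control mouse 5 they dropped to 3 (153). The 4 calls between formerly obese and obese mice dropped to 2 without obese mouse 1, 4 or 5. Over all genes, calls were then 195, 320 and 258, beside 343. Without formerly obese mouse 4 or 5 the 4 calls dropped to 1, beside 359 and 167 calls over all genes. At an adjusted p under 0.05 without a fold cutoff, 0 other pathway genes were left in obese against control mice and 1 (Pmepa1) in formerly obese against obese mice. The number of members with a DMR went from 7 within 100 kb to 3 within the gene. The cause of these changes was not tested.

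The replicate number was also used as a block, though the numbers are not known to pair mice. Then 1 member, Bambi, was called in formerly obese against control mice (log2 -0.44, adjusted p = 0.0594). Again Bambi was the 1 called in formerly obese against obese mice (log2 -0.39, adjusted p = 0.152). Over all genes the block gave 537 and 346 calls there, beside 482 and 343 without it. Among the other named genes the block ended the call of Bmp3 in formerly obese against obese mice (log2 0.28, adjusted p = 0.236) and added one of Gdf15 in obese against control mice (log2 -0.54, adjusted p = 0.206), and it changed no other call. Of 15 pairs of libraries with the same number, 5 had deviations correlated over 0.1 (range -0.231 to 0.333). In 10 of 30 pairings of a library with another group, the best correlation was with the own number. Each pairing had 5 libraries to choose from, 1 of them with the own number, and pairs of groups were counted from both sides.

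Some estimates near 0 changed sign when 1 library was left out. In obese against control mice the ranges were -0.13 to 0.042 for Bambi, -0.044 to 0.061 for Smad6, -0.12 to 0.022 for Id2 and -0.46 to 0.030 for Bmper. In formerly obese against control mice they were -0.0030 to 0.18 for Smad6, -0.028 to 0.082 for Id2 and -0.037 to 0.046 for Skil. In formerly obese against obese mice they were -0.049 to 0.034 for Tgfbr2 and -0.022 to 0.16 for Smad6. With the GC trend removed, the sign changed for Smad6 (-0.013) and Furin (-0.0067) in obese mice and for Id2 (-0.0049) in formerly obese mice, both against control mice. Skil in formerly obese against control mice had 0.00074 with DESeq2's size factors, 0.0011 with at least 10 counts in every library, 0.0017 with the 2 groups alone and 0.0025 with the replicate block. With at least 10 counts in every library Bmp8b and Bmper gave no value. Without 1 library, 435 of the members' estimates kept their direction and their side of the cutoffs, 11 changed sign and 4 became calls. Under the other settings these counts were 262, 2 and 6. They include fits that left out a mouse of the group not compared. They also include a change of threshold that leaves the estimate as it was.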

Other observations

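The ratio of Id1 to Id3 counts within a library, which does not depend on how the libraries are scaled, was computed after the values had been seen. It was 2.30, 1.86, 1.98, 1.97 and 1.94 in control mice and 1.96, 2.18, 1.87, 1.92 and 1.70 in obese mice. In formerly obese mice it was 1.59, 1.58, 1.51, 1.61 and 1.70. All 5 formerly obese mice lay under all 5 control mice, and 4 of 5 lay under every obese mouse. The log2 ratio of Id1 to Id3 was lower by a difference of -0.33 in formerly obese against control mice (exact permutation test, two-sided, p = 0.0079, the smallest that 5 against 5 can give) and of -0.27 against obese mice (exact p = 0.0159). The ratios of all 45 pairs of members gave 135 comparisons, of which 7 reached the smallest p and 22 an unadjusted p under 0.05. None passed an adjusted p of 0.05, the lowest being 0.153. The pair was picked for its pattern, so its values are a description.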
